A study of Mus musculus with 2 samples.

Results

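The cells described here are cells of the embryonic mouse cortex that hold *Olig* genes or other early genes of the oligodendrocyte lineage. Their working name is glial-fated progenitors, but the OPC markers *Cspg4*, *Gpr17* and *Lhfpl3* were at or near 0 in the members without *Pdgfra* or *Sox10*. A cell was taken as a member when it held a unique molecular identifier (UMI, 1 captured RNA molecule) of 2 or more of the 5 genes *Olig1*, *Olig2*, *Pdgfra*, *Sox10* and *Egfr*. It also had to hold no UMI of 7 genes that mark other lineages: *Eomes* (intermediate progenitor cells, IPCs), *Neurod6* (excitatory neurons), *Gad1* and *Gad2* (GABAergic cells), *Col1a1* and *Col3a1* (fibroblasts) and *Cldn5* (endothelial cells). This rule gave 118 members among 16213 cells, 53 of 5966 in replicate 1 and 65 of 10247 in replicate 2. The 43 members with a *Pdgfra* or *Sox10* UMI (17 and 26 in the libraries, named *Pdgfra*/*Sox10*+ cells) are described apart from the 75 other members (36 and 39), each of which held *Olig1* or *Olig2*. The measured values of these 12 genes chose the members, so the levels of the 12 genes are given as a description and are not tested.

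The series holds single-cell RNA sequencing of 2 wild-type (WT) libraries of cerebral cortex at embryonic day (E) 16.5, from control embryos of the line that the labels call EomesDot. Both libraries belong to 1 group without a treatment, and the labels do not say whether a library is 1 embryo or a pool, so the replicates may differ only technically. Every comparison therefore sets kinds of cell from one library side by side (n = 2 libraries), and cells are not replicates. The files held 9049 and 13556 barcodes with 46398156 and 64324236 UMIs, and 65.9% and 75.6% of the barcodes passed the limits of 1500 to 60000 UMIs and under 10% mitochondrial UMIs. The libraries shared 40 barcodes, none of them a member.

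Oligodendrocyte precursor cells (OPCs) arise from radial glial cells (RGCs), first in the ventral and later in the dorsal telencephalon, and spread through the cortex before they myelinate axons. The transcription factors OLIG1 and OLIG2 act early in this lineage, SOX10 maintains it, and PDGFRA, the receptor of platelet-derived growth factor A, drives the division and survival of precursors. EGFR, the receptor of epidermal growth factor, marks progenitors that are leaving the RGC state toward glia or olfactory bulb interneurons. In GRCm38.p6, the build of the files, *Olig2* lies on chromosome 16 from 91225550 to 91228677 and *Olig1* from 91269769 to 91271939, 41091 bases further along. *Pdgfra* lies on chromosome 5 (75151322 to 75198206), *Sox10* on chromosome 15 (79154913 to 79164490) and *Egfr* on chromosome 11 (16752203 to 16913907).

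Members made up 0.888% of the cells in replicate 1 (exact 95% binomial interval 0.666 to 1.16) and 0.634% in replicate 2 (0.490 to 0.808), a mean of 0.761% ± 0.180 (SD, n = 2). The intervals overlapped and cover counting error only, but without the cells of high doublet score the shares were 0.940% (0.703 to 1.23) and 0.525% (0.388 to 0.696), whose intervals did not overlap. *Pdgfra*/*Sox10*+ cells alone were 0.285% and 0.254% of the cells. Before the genes of other lineages were applied, 102 and 184 cells held at least 2 of the 5 markers. *Neurod6* was found in 20 and 47 of these cells and *Gad2* in 21 and 38, while *Col3a1* was found in 10 and 52. Over all cells, *Neurod6* was found in 53.4% and 55.0%, *Gad2* in 35.0% and 33.7% and *Col3a1* in 1.98% and 4.45%. Cells with at least 2 markers thus held *Neurod6* and *Gad2* less often, and *Col3a1* more often, than all cells did. The cells just outside the rule, with no UMI of the 7 genes and exactly 1 marker, numbered 89 and 166, and *Egfr* was that marker in 46 and 95 of them. Just inside it, 29 and 33 members held exactly 2 markers, and *Egfr* was one of these in 24 cells of each library.

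The markers came together in a few combinations. *Olig2* with *Egfr* was found in 13 and 16 cells, *Olig1* and *Olig2* with *Egfr* in 10 and 13, and *Olig1* with *Egfr* in 9 and 6. *Olig1* and *Olig2* without *Egfr*, *Pdgfra* or *Sox10* were found in 4 cells of each library. Among *Pdgfra*/*Sox10*+ cells the most frequent set was *Olig1*, *Olig2*, *Pdgfra* and *Sox10*, in 6 and 8 cells. All 5 markers were found in 1 cell of each library. The 2 cells of each library that held *Pdgfra* and *Egfr* but neither *Olig* gene had no *Cspg4* UMI, and 14 and 5 UMIs of the precursor gene list among 9216 and 10432.

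**Figure D1:**
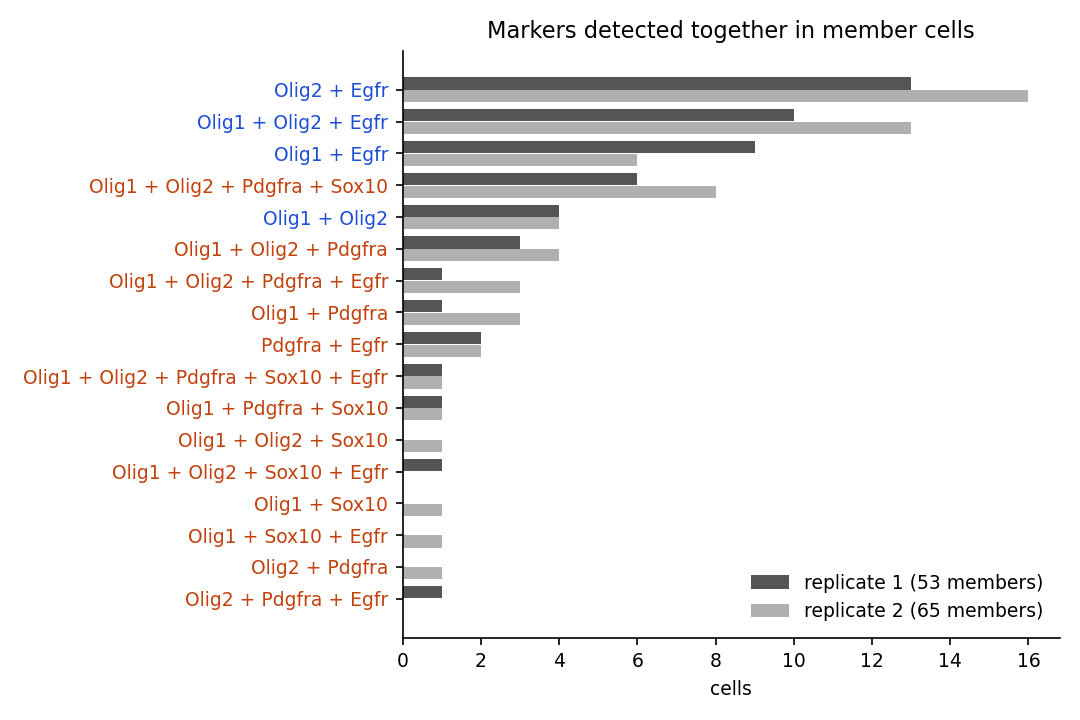
Number of member cells (x axis) with each combination of detected markers (y axis) in replicate 1 (dark bars, 53 cells) and replicate 2 (light bars, 65 cells); labels in orange hold *Pdgfra* or *Sox10*, labels in blue do not. *Olig2* with *Egfr* was the most frequent combination in both libraries, with 13 and 16 cells.

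The levels of the rule genes differed between the kinds of member. *Olig1* reached 1156 and 796 CPM (a gene's UMIs scaled to a common total for each class and library) in *Pdgfra*/*Sox10*+ cells and 153 and 345 CPM in the other members. *Olig2* stood at 476 and 328 CPM against 179 and 246 CPM. *Egfr* had the opposite order, with 146 and 167 CPM in *Pdgfra*/*Sox10*+ cells and 592 and 518 CPM in the other members. A *Pdgfra*/*Sox10*+ cell held a median of 7 and 5 *Olig1* UMIs, whereas the median of the other members was 1 in both libraries. *Pdgfra* was found in 16 of 17 and 23 of 26 *Pdgfra*/*Sox10*+ cells and *Sox10* in 9 and 13. As a background, *Olig1* was found in 0.556% and 1.13% of cells with 2 or more *Neurod6* UMIs, excitatory neurons that should lack it, at medians of 7302.5 and 6092 UMIs. The medians of the members were 5124 and 6127 UMIs (*Pdgfra*/*Sox10*+ cells) and 9248.5 and 6481 UMIs (other members).

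Members were set beside reference classes chosen by other genes. The RGC reference held 88 and 102 cells with 2 or more of *Pax6*, *Hes5* and *Emx2*, none of the 5 markers and none of the 7 genes of other lineages. The cycling GABAergic reference held 101 and 159 cells with at least 2 *Gad1* or *Gad2* UMIs and at least 3 of 6 cell cycle genes. Over 13237 genes, the log2 levels of the other members correlated with those of the RGC reference at Pearson's r = 0.932 and 0.922, and with the cycling GABAergic reference at 0.881 and 0.886. *Pdgfra*/*Sox10*+ cells correlated with the other members at 0.826 and 0.853 and with the RGC reference at 0.815 and 0.846. These values are across genes, which are not independent. The UMI totals of *Pdgfra*/*Sox10*+ cells (102950 and 185846) were smaller than those of the other members (346067 and 272261), and the part of depth in the correlations was not tested. The other members of the 2 libraries correlated with each other at 0.934 and the *Pdgfra*/*Sox10*+ cells at 0.875.

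The first comparison asked how *Pdgfra*/*Sox10*+ cells differed from the other members in genes that the rule did not use. In *Pdgfra*/*Sox10*+ cells, 12 of 18 tested OPC genes were higher, 13 of 18 astroglial genes were lower, and 6 of 20 cell cycle genes were lower. The members were split on *Pdgfra* and *Sox10*, genes of the OPC lineage. Other genes that go with or against these are therefore not independent of the split. UMIs were summed per class and library and tested by the quasi-likelihood method of edgeR, with p-values adjusted after Benjamini and Hochberg, and a call is an adjusted p under 0.05. Of 15245 genes tested, 743 were called, which is 4.87%: 437 (2.87%) were higher in *Pdgfra*/*Sox10*+ cells and 306 (2.01%) lower. By Scrublet's doublet scores, 12 of the 26 *Pdgfra*/*Sox10*+ cells of replicate 2 and none of the 17 of replicate 1 were among the cells removed in an alternative, beside 5 and 1 of the other members. Scrublet's automatic threshold marked 251 cells of replicate 2, none of them a member, and no cell of replicate 1. Without the 432 and 1111 highest-scoring cells 650 genes were called, 543 of them in both fits, and the part of doublets in the result was not tested further. With every cell thinned to 1500 UMIs, 124 genes were called, of which 119 were also called above.

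Of the 20 genes of the OPC list, 18 were tested, 12 were higher in *Pdgfra*/*Sox10*+ cells and 1 was lower. The list's median log2 difference was 2.92, beside -0.04 over all genes tested. With genes at 0 in one class set at their lower bound, and genes at 3 UMIs or fewer in both left out, the medians were 2.77 over 18 genes and -0.10 over 10776. *Cspg4*, the NG2 proteoglycan of the precursor surface, stood at 340 and 167 CPM in *Pdgfra*/*Sox10*+ cells and at 8.67 and 0 CPM in the other members. Its UMIs lay in 11 of 17 and 14 of 26 *Pdgfra*/*Sox10*+ cells against 1 of 36 and 0 of 39 other members, and a count of 0 in 39 cells allows up to 7.69% of cells with a UMI, which sets no limit on cells that express the gene. The log2 difference was 5.59 ± 0.85 (SE; edgeR adjusted p = 3.8e-06), and with DESeq2 the adjusted p was 0.12. *Gpr17*, a receptor of precursors committed to maturation, was found at 175 and 80.7 CPM and was at 0 in all other members, at least 23.6-fold higher (edgeR adjusted p = 1.2e-05, DESeq2 adjusted p = 0.24).

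*Lhfpl3*, a tetraspan membrane protein enriched in OPCs, reached 2467 and 1846 CPM in *Pdgfra*/*Sox10*+ cells, and 5.78 and 0 CPM in the other members. The 2 UMIs in the other members gave a ratio of 639 with a 95% counting interval of 176 to 5289 (edgeR adjusted p = 5.9e-20). *Lhfpl3* was found in 14 of 17 and 19 of 26 *Pdgfra*/*Sox10*+ cells, beside 5.22% and 3.89% of excitatory neurons. *Matn4*, a matrix protein, stood at 68.0 and 21.5 CPM against 0 in both libraries, at least 7.85-fold higher (edgeR adjusted p = 0.0043). *Ptprz1*, a receptor phosphatase shared by RGCs and OPCs, was the 1 list gene called lower, at 1846 and 1603 CPM against 2436 and 2252 CPM (log2 difference -0.49 ± 0.13, edgeR adjusted p = 0.013). *Bcan*, the matrix protein brevican, did not pass the test, with 291 and 161 CPM against 124 and 36.7 CPM. *Nkx2-2*, a transcription factor of the lineage, had too few UMIs to be tested, 4 and 5 in *Pdgfra*/*Sox10*+ cells and 2 in the other members of each library.

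Genes of later oligodendrocytes were rare. Of the list of 10 such genes, 5 had enough UMIs to be tested and 2 were called, both higher in *Pdgfra*/*Sox10*+ cells. *Bcas1*, which marks newly forming oligodendrocytes, stood at 117 and 161 CPM against 2.89 and 14.7 CPM (log2 difference 4.09 ± 0.77, edgeR adjusted p = 0.0002). *Cnp*, a myelin enzyme, stood at 58.3 and 108 CPM against 17.3 and 7.35 CPM, and its call was lost without the cells of high doublet score. *Mog*, *Mag*, *Mobp*, *Opalin* and *Enpp6*, which accompany myelin formation, were at 0 in *Pdgfra*/*Sox10*+ cells of both libraries.

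The largest differences upward also lay outside the list. *Tmem132d*, a transmembrane protein, stood at 437 and 291 CPM in *Pdgfra*/*Sox10*+ cells and at 0 in the other members (at least 70.7-fold, edgeR adjusted p = 3.7e-10). *Col19a1*, a collagen of nonfibrillar type, stood at 408 and 204 CPM against 0 (at least 57.1-fold). *Brinp1*, which restrains cell cycle entry in neural cells, followed with 194 and 167 CPM against 0 (at least 36.4-fold). *Vxn*, *Prkcq* (protein kinase C theta), *Pstpip2*, *Ppp1r16b*, *Stk32a* and *Susd4* were also at 0 in all other members and were at least 16.4-fold to 25.0-fold higher. These genes were named by the size of their difference among those that went one way in both libraries.

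**Figure D2:**
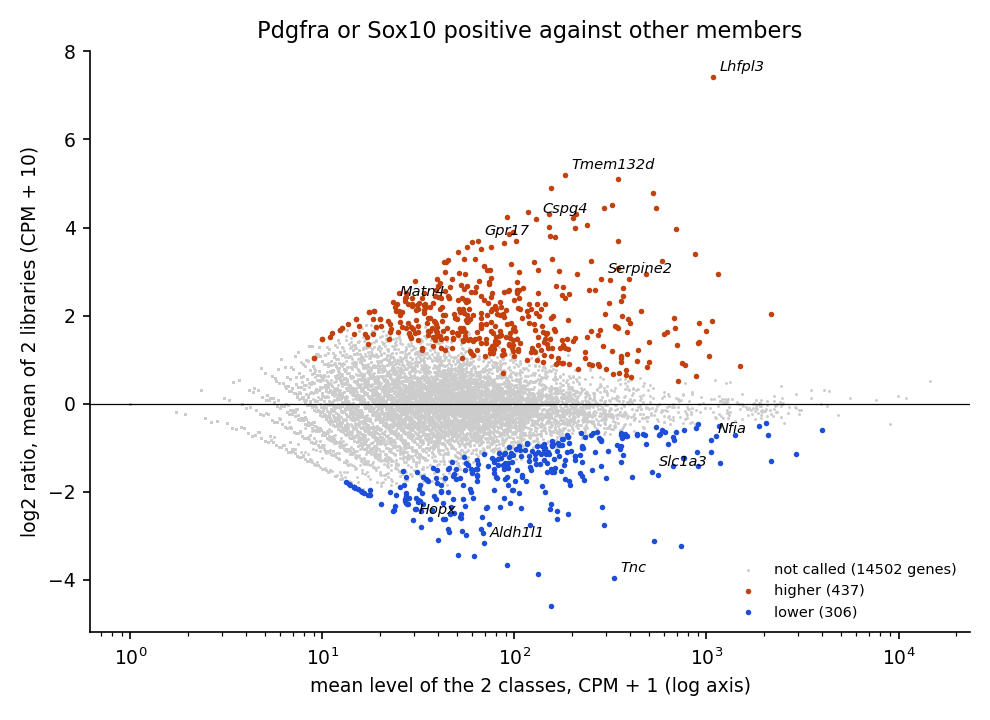
Each point is a gene, with the mean CPM of *Pdgfra*/*Sox10*+ cells and other members plus 1 on the x axis (log scale) and the mean log2 ratio of the 2 libraries, on CPM + 10, on the y axis; orange genes were called higher in *Pdgfra*/*Sox10*+ cells (437), blue genes lower (306) and grey genes not called. *Lhfpl3* stands highest at a high level and *Tnc* lies among the lowest.

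Astroglial genes had the opposite order. Of 18 tested genes of that list, 13 were lower in *Pdgfra*/*Sox10*+ cells and 1, *S100b*, was higher, with a median log2 difference of -2.55 (-2.43 with bounds). *Tnc*, the matrix protein tenascin C of RGCs and astroglia, stood at 29.1 and 32.3 CPM in *Pdgfra*/*Sox10*+ cells and at 604 and 646 CPM in the other members (log2 difference -4.40 ± 0.42, edgeR adjusted p = 2.4e-11). *Aldh1l1*, a folate enzyme of astrocytes, stood at 0 and 10.8 CPM against 185 and 77.1 CPM, a ratio of 19.9 in favour of the other members (95% counting interval 5.33 to 167). *Slc1a3*, the glutamate transporter GLAST of RGCs and astrocytes, did not vanish from *Pdgfra*/*Sox10*+ cells. It stood at 330.3 and 199 CPM against 815 and 742 CPM (log2 difference -1.69 ± 0.21, edgeR adjusted p = 5.7e-08). *Hopx*, found in RGCs of the outer zone, and *Aqp4*, the water channel of astrocytes, were at 0 in *Pdgfra*/*Sox10*+ cells, at least 5.76-fold lower for each. The *Aqp4* level of the other members was 101 CPM in replicate 1 and 7.35 CPM in replicate 2, so it rests mostly on 1 library. *Itgb5*, *Megf10* (an engulfment receptor) and *Tst* were likewise at 0, at least 9.50-fold, 7.32-fold and 6.38-fold lower.

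Of 22 tested regulators of gliogenesis, 9 were lower in *Pdgfra*/*Sox10*+ cells, 1 was higher and 12 were not called, with a median of -0.55. *Nfia*, which promotes gliogenesis, stood at 729 and 796 CPM against 1312 and 1392 CPM (log2 difference -0.83 ± 0.16, edgeR adjusted p = 0.00021). *Sox6*, which restrains OPC differentiation, was the gene that was higher, at 1680.4 and 1339.8 CPM against 439 and 514 CPM. *Id4*, *Id1* and *Nfix* were lower, *Id4* with 2 UMIs in all *Pdgfra*/*Sox10*+ cells. *Sox9* did not pass the test (311 and 215 CPM against 144 and 154 CPM).

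Of the radial glia list, 5 of 16 tested genes were lower in *Pdgfra*/*Sox10*+ cells and none was higher (median -0.59), among them *Mfge8*, *Dbi* (an acyl-CoA binding protein) and *Pdpn*. Of 11 dorsal genes tested, none was called by edgeR. Of 17 ventral genes, 3 were lower, *Dlx1* and *Meis2* among them, and none was higher, with a median of 0.07, or -0.92 with bounds, so that the sign depends on genes at 0. *Emx1* or *Emx2* without a *Dlx* gene was found in 0 and 1 *Pdgfra*/*Sox10*+ cells, *Dlx* genes without *Emx* in 3 and 4, and neither in 13 and 19.

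Of the growth factor genes, 3 of 21 tested were higher and 4 lower. *Erbb4*, a neuregulin receptor that interneurons also express strongly, stood at 1107 and 2120.0 CPM in *Pdgfra*/*Sox10*+ cells and at 147 and 125 CPM in the other members (log2 difference 3.58 ± 0.24, edgeR adjusted p = 2e-16). *Tgfa*, a ligand of EGFR, stood at 107 and 59.2 CPM against 2.89 and 0 CPM, a ratio of 47.1 on 1 UMI (95% counting interval 7.61 to 1944). *Nrg1*, a ligand of ERBB4, went the other way, with 233 and 70.0 CPM against 1208 and 1425 CPM (log2 difference -3.36 ± 0.26, edgeR adjusted p = 5.3e-14). *Gli2*, a mediator of Hedgehog signalling, was lower, as was *Gas1*, a Hedgehog co-receptor, at 87.4 and 64.6 CPM against 196 and 268 CPM. Of the Notch list, 3 of 13 tested were lower (*Jag1*, *Hes6* and *Notch1*) and none was higher. *Dll1* and *Dll3*, Notch ligands of differentiating progenitors, did not pass the test.

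Of 20 tested cell cycle genes, 6 were lower in *Pdgfra*/*Sox10*+ cells, none was higher and 14 were not called, with a median of -0.68. *Top2a*, a topoisomerase of dividing cells, stood at 204 and 253 CPM against 451 and 503 CPM (log2 difference -1.08 ± 0.26, edgeR adjusted p = 0.0049). *Mki67* stood at 97.1 and 80.7 CPM against 217 and 173 CPM, and its call was lost with DESeq2 and without the cells of high doublet score. At least 2 of 6 cycle genes were found in 47.1% and 38.5% of *Pdgfra*/*Sox10*+ cells and in 61.1% and 61.5% of the other members. Thinned to 1500 UMIs per cell these shares were 29.4% and 15.4% against 44.4% and 30.8%. In excitatory neurons, which do not divide, the share was 2.06% and 3.38% before thinning. Both kinds of member thus held many cells above this background.

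Markers of other cell types were counted beside these results. *Pdgfra* is also a gene of meningeal fibroblasts. The rule asked for *Col1a1* and *Col3a1* at 0, so low levels of other fibroblast genes are not independent of it. The 9 other fibroblast genes together had no UMI in *Pdgfra*/*Sox10*+ cells of replicate 1 and 3 UMIs in replicate 2, and *Lum*, *Col6a1*, *Col6a2*, *Postn*, *Foxc1* and *Twist1* were at 0 in both. In the other members the fibroblast list summed to 26.0 and 47.7 CPM, and *Lama2*, a laminin, was called lower in *Pdgfra*/*Sox10*+ cells. The part of these cell types in the results was not tested. The microglia list summed to 38.9 and 32.3 CPM in *Pdgfra*/*Sox10*+ cells the endothelial list to 77.7 and 59.2 CPM with *Pecam1* at 0, and the mural list to 9.71 and 16.1 CPM. In the other members the microglia list summed to 14.4 and 22.04 CPM, the endothelial list to 17.3 and 40.4 CPM and the mural list to 34.7 and 33.1 CPM, so the first 2 lists were higher, and the mural list lower, in *Pdgfra*/*Sox10*+ cells of both libraries. Globin and other erythroid genes, a sign of free RNA, summed to 767 and 974 CPM there and to 471 and 1124 CPM in the other members. Of the neuronal list, *Map2* and *Snap25* were called higher in *Pdgfra*/*Sox10*+ cells, and both calls were lost without the cells of high doublet score.

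**Figure D3:**
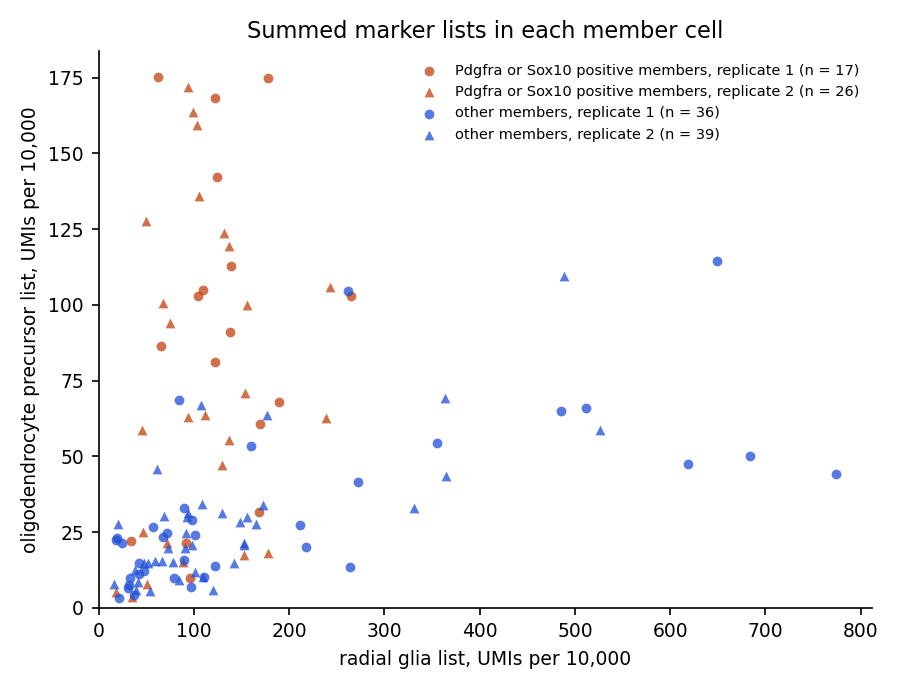
Each point is a member cell, with UMIs of the radial glia gene list per 10000 UMIs on the x axis and UMIs of the OPC gene list per 10000 on the y axis; orange points are *Pdgfra*/*Sox10*+ cells, blue points other members, circles replicate 1 and triangles replicate 2. *Pdgfra*/*Sox10*+ cells reach up to 175 and 172 per 10000 on the OPC list, and other members up to 774 and 527 on the radial glia list.

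Single cells varied within each kind. The OPC list took a median of 91.2 and 63.4 UMIs per 10000 in *Pdgfra*/*Sox10*+ cells, with a range of 9.76 to 175 in replicate 1 and 3.54 to 172 in replicate 2. The other members had medians of 23.2 and 21.4, and ranges of 3.10 to 115 and 5.44 to 109.7. The radial glia list ranged from 18.6 to 774 and from 15.6 to 527 per 10000 in the other members, around medians of 93.5 and 98.2. The kinds of member therefore overlapped on both lists.

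The second comparison set *Pdgfra*/*Sox10*+ cells against the RGC reference, to show how far OPC genes stood above the progenitor state. Of 15242 genes tested, 1302 (8.54%) were called, 589 (3.86%) higher in *Pdgfra*/*Sox10*+ cells and 713 (4.68%) lower. DESeq2 called 701 higher and 467 lower. Of the OPC list, 15 of 18 tested genes were higher and none lower, with a median log2 difference of 3.59 beside -0.17 over all genes. The reference had to hold none of the 5 markers and *Pdgfra*/*Sox10*+ cells 2 or more. Genes that go with these markers are therefore not independent of the choice of cells. Of the neuronal list, 4 of 16 were higher (*Snap25*, *Bcl11b*, *Map2* and *Dcx*) and none lower, and of the endothelial list *Ramp2* was higher, at 58.3 and 32.3 CPM against 2.36 and 2.99 CPM. Their part in the result was not tested. *Lhfpl3* was at 0 in the RGC reference, at least 1045-fold below *Pdgfra*/*Sox10*+ cells. *Bcan* was called here, at 53.1 and 58.3 CPM in the reference (log2 difference 1.80 ± 0.39, edgeR adjusted p = 0.00072). *Plpp4*, a lipid phosphatase, was among the genes with the largest differences, at 107 and 70.0 CPM against 0 (at least 42.0-fold).

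Genes of the RGC state were lower. The RGC reference was chosen on *Pax6*, *Hes5* and *Emx2*, so genes that go with these are not independent of that choice. Of the radial glia list, 9 of 14 tested were lower in *Pdgfra*/*Sox10*+ cells and none higher (median -1.17), and of the astroglial list 11 of 18 were lower and 1 higher (median -2.67). *Slco1c1*, a thyroid hormone transporter, was at 0 in *Pdgfra*/*Sox10*+ cells and at 179.5 and 187 CPM in the reference, at least 17.6-fold lower. *Ecrg4*, *Ccdc80*, *Nedd9*, *Col22a1*, *Htra1* and *Anxa2* were also at 0, and *Ecrg4* was at least 15.6-fold lower. *Nrg1* fell from 4469 and 4507 CPM in the reference to 233 and 70.0 CPM (log2 difference -5.23 ± 0.23, edgeR adjusted p = 2.6e-23). *Fabp7*, a fatty acid binding protein of RGCs, was called lower too, at 8218 and 6306 CPM in *Pdgfra*/*Sox10*+ cells against 13245 and 13282 CPM. Cell cycle genes were lower in 9 of 20 tested, although the reference was not chosen on them.

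Regional genes of the telencephalon were compared because OPCs of this age can be of ventral or dorsal origin. The RGC reference was chosen on *Pax6*, *Hes5* and *Emx2*, and *Pax6* and *Emx2* are dorsal genes, so the levels of other dorsal genes in it are not independent of that choice. Of the dorsal list, 6 of 9 tested genes were lower in *Pdgfra*/*Sox10*+ cells than in the RGC reference and none was higher. *Tfap2c*, *Dmrta2* and *Fezf2*, factors of dorsal progenitors, were at 0 in *Pdgfra*/*Sox10*+ cells and at 28.4 to 70.2 CPM in the reference. Of the ventral list, 3 of 17 were higher, *Nkx2-1* and *Sp9* among them, and *Meis2* was lower. *Nkx2-1*, which specifies the medial ganglionic eminence, stood at 19.4 and 32.3 CPM in *Pdgfra*/*Sox10*+ cells and at 0 in the RGC reference (edgeR adjusted p = 0.0045). This rests on 2 UMIs in 2 of 17 cells and 6 UMIs in 5 of 26 cells, and the call was lost with cells thinned to 1500 UMIs. In replicate 2, 3 of the 5 cells, with 4 of the 6 UMIs, were among those of high doublet score, and without such cells the edgeR adjusted p was 0.037. In excitatory neurons *Nkx2-1* was found in 0.278% and 0.872% of cells. *Lhx6* and *Lhx8*, which follow *Nkx2-1* in interneurons, had 2 UMIs and 0 UMIs in all *Pdgfra*/*Sox10*+ cells.

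Of the growth factor list, 4 of 21 tested genes were higher than in the RGC reference and 8 were lower, of the Notch list 3 of 12 were higher and 2 lower, and of the regulators of gliogenesis 5 of 21 were higher and 7 lower. *Spry4*, an inhibitor of receptor tyrosine kinase signalling, stood at 97.1 and 75.3 CPM against 3.54 and 0 CPM (log2 difference 5.22 ± 0.87, edgeR adjusted p = 1.3e-05), and *Spry1* at 136 and 43.0 CPM against 1.18 and 8.97 CPM. *Dusp6*, a phosphatase of ERK, stood at 38.9 and 32.3 CPM against 3.54 and 0 CPM. *Dll3* stood at 58.3 and 48.4 CPM against 1.18 and 1.49 CPM (edgeR adjusted p = 1.1e-05) and *Dll1* at 29.1 and 48.4 CPM against 2.36 and 0 CPM (edgeR adjusted p = 0.00016). *Notch2*, a receptor of the same pathway, was lower, at 68.0 and 5.38 CPM against 295 and 254 CPM. The RGC reference was chosen in part on *Hes5*, an effector of Notch receptors, so Notch genes are not independent of that choice.

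The third comparison set the other members against the RGC reference. Of the radial glia list, 6 of 14 tested genes were lower in the other members and none was higher, and Notch ligands were among the genes that were higher. A median other member held 93.5 and 98.2 UMIs of the radial glia list per 10000, against 222 and 217 in the reference, and 26.1 and 23.3 of the astroglial list, against 59.3 and 59.4. The class sums lay closer, at 23013 and 14199.6 CPM against 26130.4 and 24928 CPM for the radial glia list. For the astroglial list they were 5458 and 3592 CPM against 6836 and 6619 CPM. Single cells reached 774 and 527 per 10000 of the radial glia list in the other members, and 648 and 803 in the reference. The reason for the closer sums was not tested. The reference was chosen on *Pax6* and *Hes5*, which are on the radial glia list, so its level on that list is not independent of the choice. Of 15242 genes, 660 (4.33%) were called. The other members were higher in 234 (1.54%) and lower in 426 (2.79%), and DESeq2 called 265 against 304. *Slc1a3* (718 and 759 CPM in the reference), *Nfia* (1334 and 1234), *Aldh1l1* (109 and 88.2), *Top2a* (431 and 462) and *Mki67* (178 and 167) did not pass the test. At least 2 of 6 cycle genes were found in 50 of 88 and 51 of 102 RGC reference cells, and in 36.4% and 37.3% after thinning. *Cspg4* had 3 UMIs, all in 1 cell, in the other members and 1 UMI in the reference, and *Gpr17* had none in either class. Of the OPC list, 3 of 18 were higher and 1 lower than in the RGC reference, with a median of 0.50 beside -0.08 over all genes.

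Of the Notch list, 4 of 12 tested were higher and 2 lower. *Hes6*, which acts against HES1, stood at 283 and 206 CPM against 48.4 and 44.8 CPM (log2 difference 2.30 ± 0.21, edgeR adjusted p = 3.5e-11). *Dll1* had 17 and 6 UMIs against 2 and 0 UMIs and stood higher (edgeR adjusted p = 5.1e-05), as did *Dll3*, at 40.5 and 18.4 CPM against 1.18 and 1.49 CPM. *Hes1*, an effector of Notch receptors, and *Notch2* were lower, *Hes1* at 37.6 and 62.4 CPM against 105 and 146 CPM. The ligands and *Hes6* thus had the opposite order to *Hes1* and *Notch2* against this reference. The reference was chosen in part on *Hes5*, an effector of Notch receptors like *Hes1*. The levels of Notch genes in it are therefore not independent of that choice.

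Other genes with the largest differences upward included *Grm5*, a metabotropic glutamate receptor, at 332 and 356 CPM against 21.3 and 37.4 CPM (log2 difference 3.49 ± 0.24, edgeR adjusted p = 2.9e-15). *Slit1* and *Sema3e* encode guidance cues, *Nxph1* a neurexin ligand, *Rgs7* a regulator of G protein signalling and *Rbfox3* a splicing factor of neurons, and all were higher by 3.46 or more on the log2 scale. *Egfros*, at 101 and 95.5 CPM against 1.18 and 2.99 CPM, is by its name a transcript from the strand opposite *Egfr*, a gene of the rule, so it is not independent of the choice of cells. Downward, *Adamts18* stood at 8.67 and 14.7 CPM against 256 and 242 CPM (log2 difference -4.57 ± 0.34, edgeR adjusted p = 1.5e-14). *Reln*, *Lingo2*, *Snhg11* and *Unc5c* were also lower, and their levels in the RGC reference differed between the libraries (*Reln* 68.5 and 251 CPM).

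Astroglial genes moved in both directions, 4 of 18 tested higher and 5 lower. *Tnc* was lower than in the RGC reference, at 604 and 646 CPM against 1051 and 907 CPM (log2 difference -0.77 ± 0.16, edgeR adjusted p = 0.00099, DESeq2 adjusted p = 0.24). *Clu* and *Aldoc* were lower. *Sparcl1* and *Aqp4* were called higher, but without replicate 1 their log2 ratios were 0.063 and -0.13, and *Sparcl1* stood at 332 and 55.1 CPM in the other members against 88.6 and 52.3 CPM. Among the radial glia genes that were lower were *Vim* and *Sox9*. *Sox9* stood at 144 and 154 CPM against 282 and 212 CPM (log2 difference -0.85 ± 0.19, edgeR adjusted p = 0.003). *Nrg3* and *Nrg1* were lower, and *Ptch1*, a Hedgehog receptor and target, was higher at 130.0 and 129 CPM against 60.2 and 62.8 CPM and was named after its value was seen.

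Regional genes were read with the same limit, since the RGC reference was chosen on *Emx2* and *Pax6*. Of the ventral list, 5 of 17 were higher than in the RGC reference, *Dlx1*, *Dlx2*, *Gsx2* and *Six3* among them, and *Meis2* was lower. *Dlx1* stood at 147 and 110.2 CPM against 5.90 and 22.4 CPM (log2 difference 3.20 ± 0.39, edgeR adjusted p = 4.9e-08). *Gsx2*, a factor of lateral ganglionic eminence progenitors, stood at 17.3 and 44.1 CPM against 3.54 and 5.98 CPM, and its call was lost without the cells of high doublet score. Of the dorsal list, 5 of 9 were lower and none higher, with *Emx1* not called (17.3 and 18.4 CPM against 31.9 and 34.4 CPM). *Gsx2* was at 0 in *Pdgfra*/*Sox10*+ cells.

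**Figure D4:**
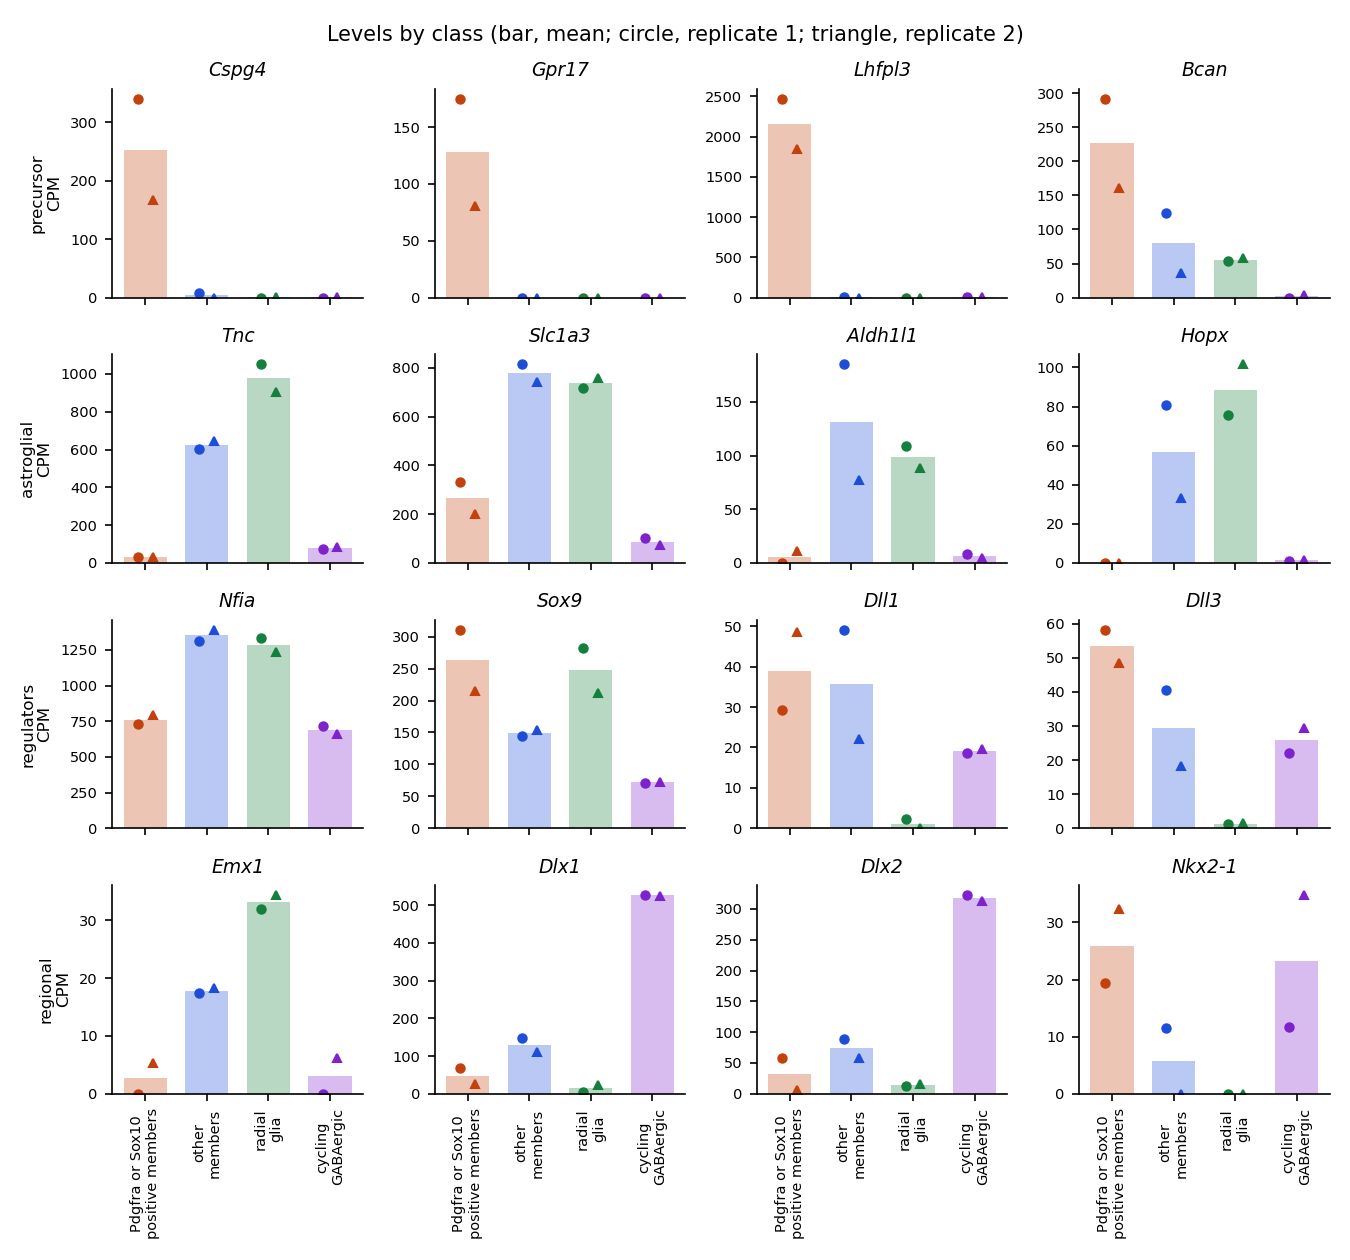
CPM (y axes, each from 0) of 16 genes in *Pdgfra*/*Sox10*+ cells, other members, the RGC reference and the cycling GABAergic reference (x axes); bars are means of 2 libraries, circles replicate 1 and triangles replicate 2. *Cspg4*, *Gpr17* and *Lhfpl3* stand near 0 outside *Pdgfra*/*Sox10*+ cells, and *Tnc* is at 604 and 646 CPM in the other members.

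The fourth comparison set the other members against cycling GABAergic cells, since *Dlx* genes and *Egfr* also mark progenitors of interneurons. Of 15225 genes, 2276 (14.9%) were called. The other members were higher in 983 (6.46%) and lower in 1293 (8.49%), and DESeq2 called 1085 against 1062. Of the astroglial list 15 of 18 were higher and none lower (median 2.89 beside -0.08 over all genes), and of the radial glia list 13 of 16 were higher and 1, *Pax6*, lower. *Slc1a3* stood at 815 and 742 CPM against 102 and 73.2 CPM (log2 difference 3.08 ± 0.17, edgeR adjusted p = 7.5e-20). *Hes5*, an effector of Notch receptors, stood at 266 and 246 CPM against 5.84 and 15.2 CPM (log2 difference 4.45 ± 0.29, edgeR adjusted p = 4.6e-17). *Slc6a11*, a GABA transporter of astroglia, stood at 159 and 95.5 CPM against 2.34 and 4.46 CPM. *Ptprz1*, *Bcan*, *Id3* and *Spry4* were higher too, the last against 0 in both libraries.

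Genes of the GABAergic lineage were lower. Of the ventral list 13 of 17 were lower and none higher (median -3.03, and -2.45 with bounds), and of the neuronal list 8 of 16 were lower and none higher. *Dlx6os1* had 3 UMIs in the other members of each library and stood at 1696 and 1544 CPM in the reference (log2 difference -7.48 ± 0.38, edgeR adjusted p = 1.1e-20). *Dlx1* and *Dlx2*, called higher against the RGC reference, were lower here, *Dlx1* by -2.11 ± 0.20 on the log2 scale. *St18*, *Ebf1*, *Scrt1* and *Dlx6*, transcription factors of young neurons, were at 0 in the other members, at least 13.6-fold to 27.6-fold lower. *Gsx2*, *Dll1* and *Dll3* did not pass the test. The absence of *Gad1* and *Gad2* was a condition of the rule, so genes that go with them are not independent of the rule.

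**Figure D5:**
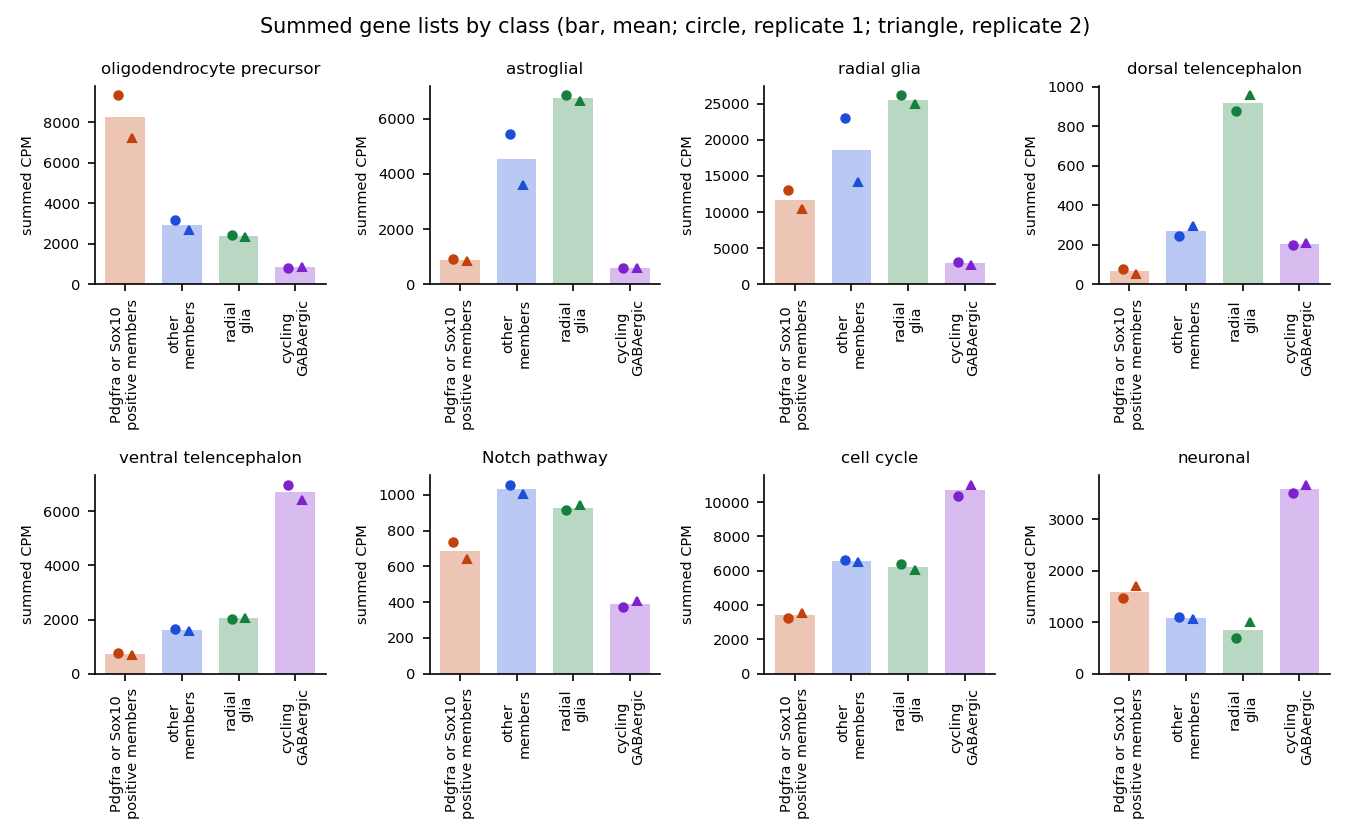
Summed CPM (y axes, each from 0) of 8 gene lists in *Pdgfra*/*Sox10*+ cells, other members, the RGC reference and the cycling GABAergic reference (x axes); bars are means of 2 libraries, circles replicate 1 and triangles replicate 2. The OPC list sums to 9315 and 7216 CPM in *Pdgfra*/*Sox10*+ cells and to 3170 and 2692 CPM in the other members, whose astroglial list stands at 5458 and 3592 CPM.

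The other members were a mixture. *Emx1* or *Emx2*, factors of the dorsal telencephalon, without any of *Dlx1*, *Dlx2*, *Dlx5* and *Dlx6os1* were found in 7 and 9 cells, the reverse in 11 and 9, both kinds of gene in 4 and 3, and neither in 14 and 18. The sums of cells with *Emx* genes were higher for some astroglial genes than those of cells with *Dlx* genes, while single cells overlapped. In replicate 2 the astroglial list took 10.0 to 88.6 UMIs per 10000 in *Emx* cells and 3.10 to 42.7 in *Dlx* cells. The 2 sides were chosen on *Emx* and *Dlx* genes, so genes that go with those are not independent of the split. Of 15239 genes, 193 (1.27%) were called between *Emx* and *Dlx* cells, 117 (0.768%) higher in *Emx* cells and 76 (0.499%) lower. Thinned cells gave 5 calls, *Tnc* and *Fabp7* among them, and a fit to only these sums gave 95. Of 18 tested astroglial genes, 8 were higher in *Emx* cells and none lower, with a median log2 difference of 2.76 beside -0.000152 over all genes. *Id3* is among the 8, and without replicate 1 its log2 ratio was -0.57.

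*Tnc* stood at 882 and 1018 CPM in *Emx* cells and at 34.9 and 86.8 CPM in *Dlx* cells (log2 difference 4.01 ± 0.42, edgeR adjusted p = 3.7e-13). *Fabp7* stood at 24839 and 11448 CPM against 1720.4 and 1881 CPM (log2 difference 3.26 ± 0.29, edgeR adjusted p = 1.3e-16). The sums of both libraries had the same order for these genes, while single cells overlapped: some *Emx* cells held no *Tnc* UMI, and some *Dlx* cells held up to 3. *Slc1a3*, *Ptprz1* and *Gas1* were higher as well, and *Grm3* and *Myo6* were at 0 in *Dlx* cells, at least 9.70-fold higher for each. *Rmst*, a long noncoding RNA of neural progenitors, stood at 664 CPM in replicate 1 but 17.9 CPM in replicate 2. Of the dorsal list, 9 genes were tested and none was called at an adjusted p under 0.05.

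Of the neuronal list, 2 of 16 tested genes, *Map2* and *Mapt*, were lower in *Emx* cells than in *Dlx* cells, none was higher and 14 were not called. *Hes6* stood at 559 and 232 CPM in *Dlx* cells and at 72.5 and 143 CPM in *Emx* cells (log2 difference -2.17 ± 0.41, edgeR adjusted p = 0.00013). *Sox11* and *Sox4* were lower in *Emx* cells too. *Map2* and *Mapt*, microtubule genes of neurons, stood at 908 and 854 CPM and at 157 and 188 CPM in *Dlx* cells, against 326 and 375 CPM and 12.1 and 17.9 CPM. *Rbfox3*, *Myt1* and *Pip5k1b* were at 0 in *Emx* cells, at least 6.55-fold to 11.3-fold lower. Since *Cspg4*, *Gpr17* and *Lhfpl3* were at or near 0 in the other members, these cells are named by their rule and not as OPCs.

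The 8 other members without *Egfr*, 4 in each library, were set against the 67 with it. *Egfr* is a gene of the rule, and a member without it, *Pdgfra* and *Sox10* had to hold both *Olig* genes. The rule's own values thus define both sides of this comparison, and its counts and levels are given only as a description. Of 15246 genes, 101 (0.662%) were called, 41 (0.269%) higher in *Egfr*+ cells and 60 (0.394%) lower, against 18 and 82 with size factors of the RLE kind and 20 and 104 with DESeq2. The balance turned to 216 higher and 69 lower without a filter on low counts and to 34 and 1 with thinned cells. The median log2 difference of all genes was 0.39. A fit to only these sums called none by edgeR, with 182 genes at an unadjusted p under 0.05. *Hopx* stood at 16.4 and 23.8 CPM in *Egfr*+ cells and at 554 and 149.9 CPM in *Egfr*- cells, and *Rspo3*, a Wnt agonist of the cortical hem, was at 0 in *Egfr*+ cells. In *Egfr*- cells *Rspo3* had 29 UMIs in replicate 1 and 1 in replicate 2, and *Aqp4* had 29 and 0.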

How the data were processed

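Single-cell suspensions of E16.5 cortex were barcoded with a 10x Genomics droplet kit. The authors deposited UMI counts for 32285 genes in each barcode, not normalized. The file headers give Cell Ranger 7.1.0, the submitters' processing notes Cell Ranger 7.0.0 and the mm10 build. Gene positions are from RefSeq's GRCm38.p6 table.

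From these counts, barcodes were filtered and members chosen as described above (Scrublet scores from scanpy 1.11.5, with the 432 and 1111 highest-scoring cells removed only as an alternative; the share was set from the number of barcodes). Whole counts were summed per library and class. Members in both kinds and 5 reference classes, including *Eomes*, *Neurod6* and postmitotic GABAergic cells, gave 14 sums. Genes that reached 10 counts in 2 or more sums were tested in edgeR 4.0.16 (R 4.3.3) with TMM scaling and the library as a block, and p-values were adjusted after Benjamini and Hochberg across every gene tested. The block pairs sums that come from the same library. The rule genes and the genes that chose a reference were left out of the tests. The SE is the log2 difference divided by the square root of F. The scripts were tested on simulated data. Where a class held 0 UMIs, the fold is a lower bound from a floor of 3 UMIs over both libraries. Intervals and floors cover counting error only.

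Genes are named by a rule: the 10 largest called differences in each direction that reached 50 CPM on the higher side and went one way in both libraries, a set of 26 glial and regional genes, and up to 4 called genes of each list, of which the text gives a part. Single exceptions within a list are named as well, and 1 gene is not reported here. The members, lists and tests were chosen with earlier results of these data known. Alternatives were DESeq2 1.42.0, other scaling, no block, no count filter, thinned cells, removed doublets and fewer classes. After seeing the data, 2 more were added: up to 1 UMI of the excluded genes, and *Pdgfra*/*Sox10*+ cells without an *Olig* UMI left out.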

Additional observations from a re-analysis of the deposited data

How the results depend on the processing

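Genes were called with every cell thinned to 1500 UMIs in smaller numbers by construction, since fewer counts remained: 124 between *Pdgfra*/*Sox10*+ cells and other members, 349 against the RGC reference, 99 for other members against RGCs, 594 against cycling GABAergic cells, 35 for the *Egfr* split and 5 for the *Emx* and *Dlx* split. A fit to only the classes compared gave 490 calls for *Pdgfra*/*Sox10*+ cells against other members, 0 for the *Egfr* split (182 at an unadjusted p under 0.05, and 124 calls by DESeq2 in the full fit) and 95 for the *Emx* and *Dlx* split. Without a filter on low counts the *Egfr* split gave 285. Without the library block the *Egfr* split gave 63 calls against 101 with it. The other 5 comparisons gave 651, 1201, 521, 2115 and 136, each within 1.5 times of its count with the block. For *Pdgfra*/*Sox10*+ cells against other members, the alternatives chosen after seeing the data gave 991 calls with up to 1 UMI of the excluded genes and 837 without the members that lacked an *Olig* UMI. Leaving out 1 library leaves no replicate, so only ratios, and no counts of calls, could be given for it. The share of members was 0.634% to 0.888% with a library left out, 0.733% without the cells of high doublet score, 0.530% with cells thinned before the rule, 0.357% with at least 3 markers and 1.06% with up to 1 UMI of the excluded genes.

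Between *Pdgfra*/*Sox10*+ cells and other members, 53 named genes were called. With thinned cells 14 of them kept the call, 29 lost it and the others had too few counts left to be tested. The call was lost for 11 without the cells of high doublet score, 9 with DESeq2 and 6 without the block. The direction of 5 named differences turned. With thinned cells, *Lama2* stood at 0.035 (other members against RGCs) and *Kcnq3* at 0.067 (*Egfr* split) on the log2 scale. Without replicate 1 and without replicate 2, *Aqp4* stood at -0.13 and 2.61 (other members against RGCs) and at 0.84 and -4.58 (*Egfr* split), and *Id3* at -0.57 and 5.55 (*Emx* against *Dlx* cells). The cause was not tested. Beyond these, the log2 ratio of the library kept often lay further from the fitted value than the spread between libraries. That ratio is on CPM + 10, another scale than the fitted difference. Without replicate 1 and 2, this held for 36 and 41 of the 53 named genes between *Pdgfra*/*Sox10*+ cells and other members. Between other members and RGCs it held for 44 and 38 of 56. Depth limits genes under about 10 UMIs in a class, and the 4 *Egfr*- cells of a library give no firm level.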
